A study of Mus musculus with 24 samples.

Results

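Snhg11 and Ndrg3 are a pair of genes on distal mouse chromosome 2 whose combined RNA level was higher in whole brain than in liver, fat or muscle. Over the next tissue the excess was 2.85-fold for Snhg11 and 1.84-fold for Ndrg3. They were chosen by name for that brain excess, with the results of these arrays already known, and every exon measurement and probe annotated to either gene was then taken. This gave 2 of the 341 genes measured, with 52 exon rows that reduce to 28 distinct exon features out of 3099, and 162 of 13388 probes. Because the choice rests on the tissue levels, the tissue levels are described without a test, and only the comparison between genotypes is tested. The fall of Snhg11 in congenic brain was also known at the choice, so its test is not independent of it.

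Snhg11 (small nucleolar RNA host gene 11) is a non-coding RNA gene whose introns hold small nucleolar RNAs, short RNAs that guide chemical modification of other RNAs. Its spliced transcript is known as a neuronal RNA. Ndrg3 encodes a member of the N-myc downstream-regulated gene family, proteins with an alpha/beta-hydrolase fold that lack the family's usual catalytic residues. NDRG3 protein is known, from work in human cells, as a protein that accumulates in low oxygen by binding lactate. Other members of the family, such as Ndrg2 and Ndrg4, are known for expression in the nervous system.

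RNA was measured in 24 samples: B6 mice (C57BL/6J) and mice of the congenic strain B6.S-2, each in 4 tissues with 3 samples per group, or 8 groups in all. The tissues were whole brain, liver, gastrocnemius muscle and white adipose tissue of the epididymal depot. The congenic strain carries SPRET/Ei DNA in a part of distal chromosome 2 on the C57BL/6J background, and where that part begins and ends is not stated in the labels. The growth protocol gives a standard chow diet and mentions a high fat diet for some congenic males, which is tied to no sample. The diet of each sample is therefore not known. F2 mice are also mentioned in that protocol, again tied to no sample. Neither age nor sex is stated for any sample. The treatment label calls every sample congenic, so the genotype rests on the sample titles, and the design text states biological replicates. The custom array held short DNA probes for the exons of genes on this stretch of chromosome 2. A level is the log2 of the normalized intensity of an exon, or of a gene after its exons were combined by median polish. A step of 1 is a doubling of brightness.

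Brain and liver were hybridised on slide 1 and adipose tissue and muscle on slide 2, so brain and liver share a slide while brain set against the other tissues also sets one slide against the other. Well row A of slide 1 held congenic samples only, in 4 arrays. Array medians of the raw intensity lay between 232 and 3571. Markers bore out the tissue labels in brain, liver and muscle. The 4 neuronal markers measured (Napb, Snph, Slc32a1 and Slc12a5) and the glial marker Cst3 were highest in brain. In liver 3 of 4 liver markers were highest, and in muscle both muscle markers were. The adipose label was borne out less clearly. There 3 of 4 adipocyte markers were highest, but Lep only at 9.58 against 9.57 in brain. The fourth, Acss2, was lowest in adipose tissue, at 9.48, and highest in muscle. Of the wider list of neuronal genes, 6 of the 11 measured were highest in brain, 3 in muscle (Kcns1, Cdh22 and Sstr4) and 2 in liver (Rims4 and Cbln4). All 7 epididymis markers and all 5 seminal vesicle markers were also highest in the adipose samples. The summed level of the seminal vesicle markers was 13.50 in congenic adipose 1 and 13.70 in congenic muscle 3, against 11.12 and 11.04 in the other congenic muscles.

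In the coordinates of the deposited files, whose genome build is not given in the sources used here, Snhg11 lay on the plus strand of chromosome 2 from base 158439030 to base 158444939. It was covered by 5 exon rows of 1 transcript, each with 3 probes. These 5 rows span 5910 bases, whereas the RefSeq gene spans 10762 bases, so part of the RefSeq gene lay outside the rows. Ndrg3 lay on the minus strand from base 156990694 to base 157055396, at 1383634 bases from Snhg11. It was covered by 47 exon rows of 4 transcripts with 147 probes, and rows with the same coordinates were averaged into 23 features. The transcripts share most exons, so these rows are repeated measurements of the same RNA and not replicates.

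The sequences in front of both genes are shown because the genes share a tissue pattern. RefSeq gives 1 promoter window for Snhg11 and 2 for Ndrg3 in assembly GRCm38.p6, each from 250 bases before to 50 bases after a transcript start. These positions belong to GRCm38.p6 and are not set against the array coordinates. The Snhg11 window is chr2:158375463-158375762 on the plus strand and the first Ndrg3 window is chr2:156992062-156992361 on the minus strand. Both are printed from 5′ to 3′, and capitals mark matches to the motifs ATGGCGC, AAGATGGCG (YY1) and GCGCATGCG (NRF1), which were chosen after the sequences had been seen.
Snhg11 promoter: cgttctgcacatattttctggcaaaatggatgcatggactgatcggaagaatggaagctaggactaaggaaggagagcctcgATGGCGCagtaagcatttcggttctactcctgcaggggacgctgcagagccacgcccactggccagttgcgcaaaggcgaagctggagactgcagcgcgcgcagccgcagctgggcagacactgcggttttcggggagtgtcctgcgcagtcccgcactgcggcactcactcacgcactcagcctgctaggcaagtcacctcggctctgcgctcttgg
Ndrg3 promoter, first start: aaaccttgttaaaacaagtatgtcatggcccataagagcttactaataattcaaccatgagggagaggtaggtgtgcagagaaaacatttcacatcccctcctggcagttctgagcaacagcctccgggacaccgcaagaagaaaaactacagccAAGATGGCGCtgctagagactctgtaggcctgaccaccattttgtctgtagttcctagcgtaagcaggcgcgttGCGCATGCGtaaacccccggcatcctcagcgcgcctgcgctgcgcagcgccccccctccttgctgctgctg
The letters ATGGCGC stood at position 83 of the Snhg11 window and at position 159 of the first Ndrg3 window, counted from the 5′ end. They occurred in 2.25% of 32851 mouse promoter windows of the same length, with both strands searched. In the Ndrg3 window they overlap the YY1 match AAGATGGCG at position 156, a word found in 1.40% of windows. The NRF1 match GCGCATGCG at position 230 of the Ndrg3 window occurred in 1.75% of windows and was not found in the Snhg11 window. None of the 3 windows held TATAAA (13.6% of all windows), CCAAT (37.4%) or the cyclic AMP response element TGACGTCA (1.79%). The second Ndrg3 window, chr2:156991654-156991953, held 1 GC box (GGGCGG, 35.7% of windows). The windows were rich in the dinucleotide CG, with 21 in Snhg11, 14 in the first and 34 in the second Ndrg3 window, against a median of 7 over all windows. A match is a description of letters and shows no bound factor.

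Snhg11 had the widest brain excess of the 341 genes on the array, and Ndrg3 ranked 4. Snhg11 stood at 12.14, 11.42 and 11.80 in the B6 brains and at 11.14, 11.40 and 10.96 in the congenic brains. In the 18 arrays of the other tissues it stayed between 9.75 and 10.14. Every brain array therefore lay above every array of another tissue, and the congenic brains lay below the B6 brains. Ndrg3 stood at 11.28, 10.80 and 11.19 in the B6 brains and at 11.03, 11.20 and 11.20 in the congenic brains, against 10.04 to 10.33 in the 18 other arrays. Its brain arrays also lay above all others, but its genotypes overlapped within brain. In all, 13 of 341 genes (3.81%) had every brain array above the 18 others, a share that describes the array and is no support for genes chosen on that basis.

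**Figure D1:**
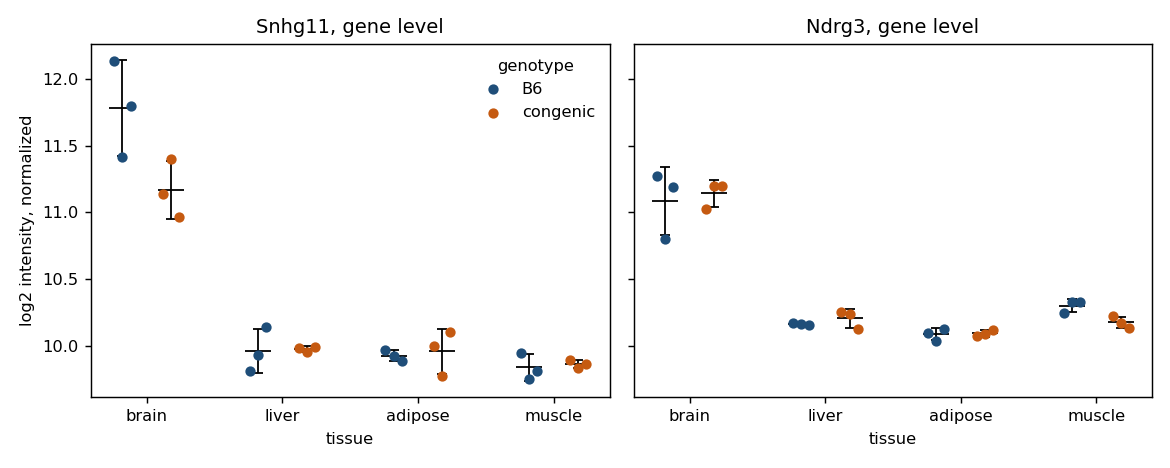
Gene levels of Snhg11 and Ndrg3 in every array (log2 normalized intensity) by tissue and genotype. Points are arrays, horizontal bars are means and whiskers are the SD (n = 3); the B6 brains reach 12.14 for Snhg11, while the 18 arrays of other tissues lie between 9.75 and 10.14.

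In B6 mice the mean level of Snhg11 was 11.79 ± 0.36 (SD, n = 3) in brain, 9.96 ± 0.17 in liver, 9.92 ± 0.04 in adipose tissue and 9.84 ± 0.10 in muscle. The 3 tissues outside brain were thus not separated beyond their spread. The congenic brain mean was 11.17 ± 0.22, with congenic liver at 9.97 ± 0.02, adipose tissue at 9.96 ± 0.17 and muscle at 9.86 ± 0.03. Brain minus liver, the comparison that stays on slide 1, was 1.83 in B6 (3.55-fold) and 1.20 in congenic mice (2.29-fold). For Ndrg3 the means were 11.09 ± 0.25 in B6 brain, 10.30 ± 0.05 in muscle, 10.16 ± 0.01 in liver and 10.09 ± 0.04 in adipose tissue. In congenic mice they were 11.14 ± 0.10, 10.17 ± 0.04, 10.20 ± 0.07 and 10.09 ± 0.02 in the same order of tissues. In B6 muscle was next to brain and its arrays lay above those of liver, while in congenic mice liver and muscle overlapped. Its brain minus liver difference was 0.93 over both genotypes, or 1.91-fold. In whole-tissue RNA, fewer cells of a type and less RNA per cell cannot be told apart.

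The genes whose pattern over the 8 group means was closest to Snhg11 were Tspyl3, with a Pearson correlation of 0.992, Napb (0.967), Ggt7 (0.966), Dbndd2 (0.951) and Ndrg3 (0.948). For Ndrg3 they were Ggt7 (0.988), Napb (0.965), Vstm2l (0.963), Tspyl3 (0.951) and Snhg11. Napb encodes a neuronal SNAP protein of the membrane fusion machinery. These correlations run over 8 points that share slides and arrays and rest mainly on the step between brain and the other tissues, so they are given as a description. Of the 3 measured genes on each side of either gene, only Slc32a1, the vesicular transporter for GABA and glycine, was highest in brain, with an excess of 0.22 over the next tissue. Lbp and Ralgapb, the nearest measured genes on either side of Snhg11, were highest in liver and adipose tissue. Sla2 and Dsn1, which flank Ndrg3, were highest in liver.

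Along the Snhg11 transcript the brain excess was uneven. The excess of brain over the highest other tissue was 0.87 in exon 1, 1.48 in exon 2, 0.36 in exon 3, 1.94 in exon 4 and 3.24 in exon 5. Brain was the highest tissue in all 5 exons, and every brain array lay above every other array in 4 of them. In the last exon (653 bases) the B6 brains stood at 12.30, 11.72 and 12.30 and the congenic brains at 11.03, 12.36 and 12.10. The other tissues averaged 8.25 in liver, 8.73 in adipose tissue and 8.18 in muscle, so brain exceeded liver by 3.72. A congenic liver array stood at 10.29 there, while the other 2 of its group were at 7.36 and 7.41. In exon 3 (80 bases), where the excess was smallest, muscle reached 10.74 against 11.11 in brain. Over exon features, 76 of 3099 (2.45%) had all brain arrays on top, and over single probes 209 of 13388 (1.56%), among them 7 of the 15 of Snhg11.

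Ndrg3 showed a similar spread along its length. Brain was highest in 16 of 23 features, and all brain arrays lay above the others in 8. The excess over the highest other tissue ran from -0.20 to 3.25, with a median of 0.44. It was widest in the last exon (1537 bases, exon 17 of the longest transcript), at 3.25, and at 2.90 in the feature of another transcript that differs from it by 1 base. In the 1537-base feature the B6 brains stood at 13.14, 12.54 and 13.25, the congenic brains at 13.14, 13.44 and 13.44, and the highest array of another tissue at 10.57. This is a 9.53-fold excess over liver in that feature, against 1.91-fold in the combined gene level. Exons 4, 12 and 13 followed with 1.60, 1.46 and 1.12.

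Other Ndrg3 exons did not separate brain. The 4 overlapping first-exon variants, 28 to 50 bases long, had excesses between -0.19 and -0.13, with muscle or adipose tissue highest. Exon 6 (64 bases) stood at 12.34 in brain and 12.34 in liver. Exons 8 and 15 were also high in muscle: exon 8 averaged 10.64 in brain and 10.74 in muscle but 8.71 in liver and 8.99 in adipose tissue, and exon 15 averaged 11.07 in brain and 10.79 in muscle but 9.02 and 9.33. The 40-base exon 16, present only in the longest transcript, had an excess of 0.30. The features of 2161 and 3250 bases had excesses of 0.17 and -0.20. The first extends exon 3 into what other transcripts treat as intron. The second covers exons 11, 12 and 13 of the longest transcript with the bases between and past them, so it is not intron alone. The excess of the 2161-base feature rests on congenic brain 1, which read 9.80 while the other 5 brain arrays lay between 6.69 and 6.97. Without that array the excess was -0.32. Levels of different exons are not set against each other, since probes differ in brightness for the same amount of RNA.

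**Figure D2:**
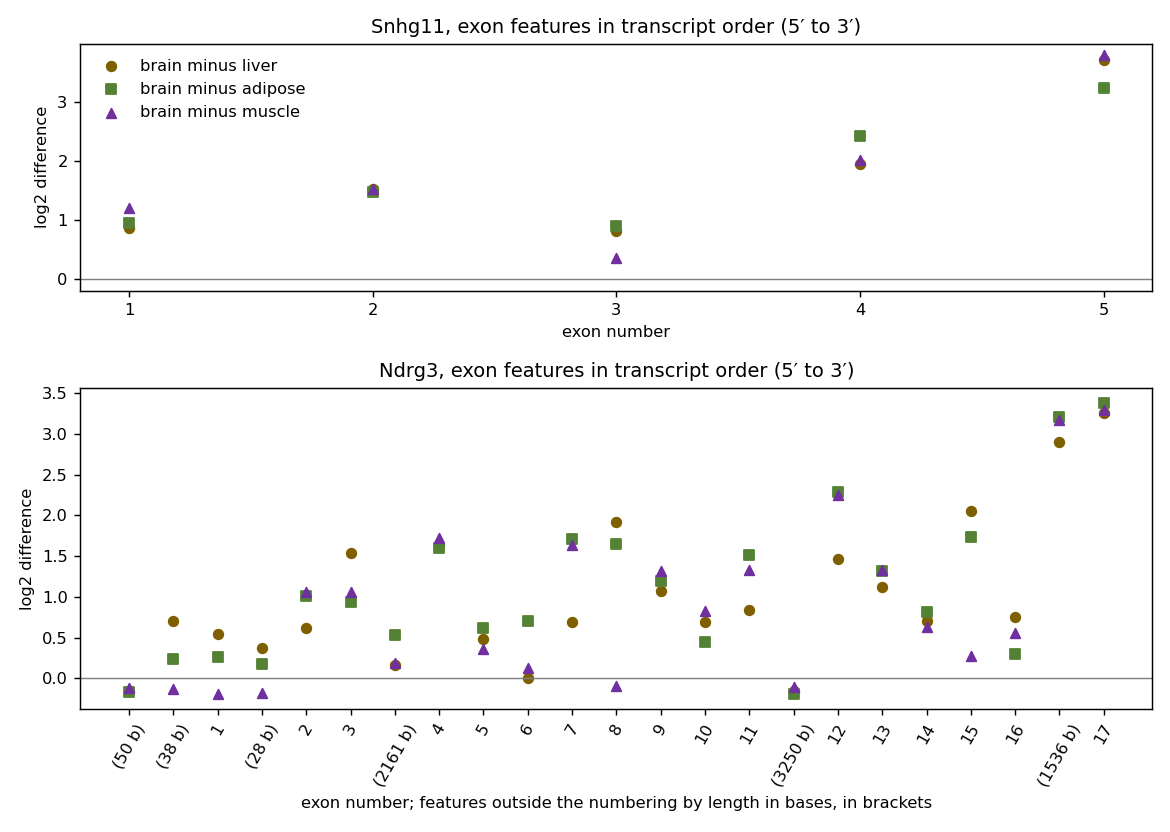
Difference in level (log2) between brain and liver, adipose tissue or muscle for each exon feature of Snhg11 (upper panel) and Ndrg3 (lower panel), in transcript order; each point is a difference of means over 6 arrays. The last exons stand highest, with excesses over the highest other tissue of 3.24 in Snhg11 and 3.25 in Ndrg3, and Ndrg3 exons 8 and 15 show small differences from muscle only.

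The range of the tissue means widened from the first to the last row of both genes, from 1.21 to 3.79 in Snhg11 and from 0.73 to 3.38 in the longest Ndrg3 transcript. Over the 196 genes with at least 5 rows, the last row had the wider range in 117 (59.7%), with median ranges of 0.52 in the first and 0.63 in the last row. Rows repeated between Ndrg3 transcripts were also compared. For the 14 exons measured more than once, the SD between repeated rows on the same array had a median of 0.20 and ran from 0.10 to 0.57. This SD includes lasting differences in brightness between the rows, so it is not a measure of noise alone. The SD between replicate arrays, taken on the average of the repeated rows, had a median of 0.21 and is an unlike measure.

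Between genotypes, the combined level of Snhg11 was lower in congenic than in B6 brain by 0.62 ± 0.14 (SE) on the log2 scale, or 1.53-fold (95% confidence interval -0.90 to -0.33, limma adjusted p = 0.0238 over 341 genes). This fall was already known when the gene was chosen. All 3 congenic brains lay below all 3 B6 brains, but only just, at 11.40 against 11.42 for the nearest arrays. In brain 3 of 341 genes (0.88%) passed, all of them lower, and in 18 genes (5.28%) the congenic brains lay wholly below the B6 brains. Within well row C, which held 2 B6 and 1 congenic brain array, the difference was -0.64. The call did not hold without B6 brain 1 (-0.44, limma adjusted p = 0.210), B6 brain 3 (-0.61, 0.106), congenic brain 1 (-0.60, 0.0765) or congenic brain 3 (-0.52, 0.209), nor with well row as a block (-0.65, 0.216). It also missed the threshold with no background correction (limma adjusted p = 0.0859), median centring (0.0942), both (0.194), the authors' value table (0.231) and the 6 brain samples alone (0.352). The value table setting also took the mean of the log2 probe values in place of median polish. Its adjustment ran over 301 genes, so it changes more than the input. With the mean of the exon features in place of median polish the difference was -0.39 (limma adjusted p = 0.502).

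Outside brain no Snhg11 difference passed the threshold. The Snhg11 difference was 0.02 in liver, 0.03 in adipose tissue and 0.03 in muscle (each ± 0.14 SE, limma adjusted p = 0.987, 0.992 and 0.975). The interval in liver ran from -0.27 to 0.30. The difference between tissues in the genotype effect did not pass the threshold (F = 5.61, limma adjusted p = 0.234), where 1 of 341 genes (0.293%) did. The brain fall is therefore not shown to differ from the values in the other tissues at the gene level. For Ndrg3 the difference was 0.06 ± 0.09 in brain, with an interval of -0.12 to 0.23, 0.04 in liver, 0.01 in adipose tissue and -0.13 in muscle. None passed the threshold (limma adjusted p between 0.905 and 0.992), where 0.587% of genes passed in liver, 1.47% in adipose tissue and 0.587% in muscle, and the brain interval excludes a fall of the size measured for Snhg11.

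Neuronal genes were read beside this. Of 18 listed neuronal genes 11 were measured, of which 1 fell in congenic brain, Napb, by 0.63 ± 0.13 (limma adjusted p = 0.0238), and 0 rose. The median difference over the 11 was -0.09, against 0.00427 over all genes, and 8 of the 11 estimates were below 0. The summed level of the 11 ran from 13.65 to 13.84 in B6 brain and from 13.60 to 13.67 in congenic brain, which overlap. The summed level of the 4 measured neuronal markers ran from 12.46 to 12.66 in B6 brain and from 12.24 to 12.38 in congenic brain, without overlap, and Napb is among them. The other 3 had differences of -0.03 for Snph, -0.18 for Slc32a1 and -0.10 for Slc12a5, none past the threshold. The glial marker Cst3 had a difference of -0.09 ± 0.27. The 4 measured immune markers (B2m, Cd40, Samhd1 and Cst7) had estimates above 0 in congenic brain, and none passed. The differences were 0.41 ± 0.24 (SE) for B2m, 0.08 for Cd40, 0.03 for Samhd1 and 0.04 for Cst7. The summed level of these markers ran from 11.69 to 11.89 in B6 brain and from 11.94 to 12.07 in congenic brain, without overlap. B2m had by far the widest difference among them. The part of neuronal or immune RNA content in the Snhg11 difference was not tested. None of the 12 neighbouring genes passed in brain, where Slc32a1 alone among them had all congenic brains below all B6 brains.

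Exon by exon, the Snhg11 difference in brain was -0.10, -0.72, -0.49, -0.36 and -0.28 from exon 1 to exon 5. All 5 estimates were below 0, and none passed the threshold over 3099 features, of which 11 (0.355%) passed in brain. The nearest was exon 2, at -0.72 with a limma adjusted p of 0.0509. Its B6 brains stood at 12.14, 11.46 and 11.80 and its congenic brains at 10.87, 11.40 and 10.96. In 4 of the 6 brain arrays the combined gene level equalled the level of exon 2 to within 0.01, as median polish of 5 exons follows the middle one. Exon usage, the departure of single exons from their gene's average change, gave no call for Snhg11 in brain (diffSplice F test, adjusted p = 0.949, where 8 of 314 genes or 2.55% passed).

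The authors' value table gives single probes, 3 per Snhg11 exon, which were numbered along the transcript by the order of their identifiers. In brain 3 of the 15 probes passed, all lower in congenic mice, where 35 of 13388 probes (0.261%) passed in that direction. Probe 6, the last of exon 2, read 1938, 1981 and 2677 in the B6 brains and 694, 804 and 328 in the congenic brains. The groups were far apart, with a difference of -1.94 ± 0.30 (SE), or 3.83-fold lower (limma adjusted p = 0.00106). Probe 5, also in exon 2, read 5924, 4461 and 7294 in B6 against 1971, 3550 and 2462 in congenic brain, a difference of -1.16 ± 0.23 (adjusted p = 0.0175 in limma). Probe 12, the last of exon 4, read 5368, 1809 and 4800 against 1106, 947 and 1530, a difference of -1.62 ± 0.34 (adjusted p = 0.0255 in limma).

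The remaining 12 probes did not pass and differed among themselves. Probe 13, the first of exon 5, read 652, 489 and 361 in B6 brain and 198, 168 and 150 in congenic brain, without overlap. The difference of -1.51 ± 0.80 (SE) did not pass (limma adjusted p = 0.567). That SE comes from a spread shared over all groups, not from the brain arrays alone. For this probe congenic liver 3 read 3010, against 100 and 63.3 in the other congenic livers. Whether it is the congenic liver array that stood at 10.29 in exon 5 was not tested. Replicate numbers need not match between the value table and the scanner values. Probe 4, in the same exon as probes 5 and 6, had a difference of 0.32, with an interval of -0.30 to 0.93. Probes 10 and 11, beside probe 12 in exon 4, had differences of -0.02 and 0.17. Probe 15, the last of the transcript and the probe with the widest brain excess (5.45 over liver), averaged 7731 in B6 brain and 7909 in congenic brain. Over the 12 probes that did not pass, the differences ran from -1.51 to 0.35 with a median of -0.08, 8 lower and 4 higher, and their average log2 level was 10.69 ± 0.14 in B6 and 10.48 ± 0.36 in congenic brain (SD, n = 3), a difference of -0.21. Over all 15 it was -0.48. The split of 3 and 12 was made on these values and is a description. Probe sequences were not used here, and a sequence difference between SPRET/Ei and C57BL/6J under any probe was not tested.

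**Figure D3:**
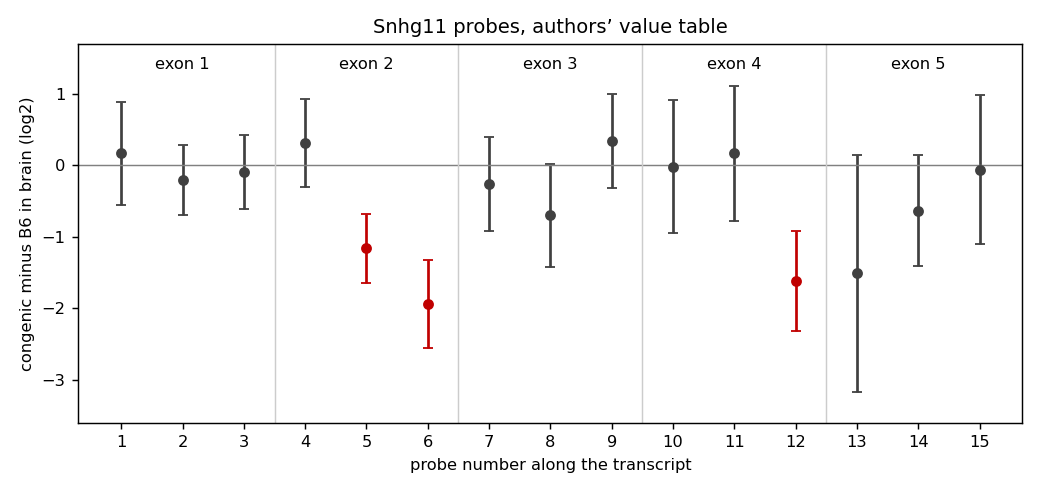
Congenic minus B6 difference in brain (log2) for the 15 Snhg11 probes of the authors' value table, in order along the transcript, with 95% confidence intervals of the limma fit. Probes 5, 6 and 12 (red) passed the threshold with differences of -1.16, -1.94 and -1.62, while the first probe of exon 2 lay at 0.32 and the last probe of the transcript at -0.06.

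Outside brain, probes 5 and 12 had liver differences of -0.13 and -0.11. Probe 6 read 106, 73.0 and 140 in B6 liver and 167, 191 and 243 in congenic liver, a difference of 0.94 ± 0.30 (SE) in the direction opposite to brain. The liver groups did not overlap, but the difference did not pass (limma adjusted p = 0.141). Its differences in adipose tissue and muscle were -0.21 and -0.00409. For probe 6 the test of the difference between tissues passed (limma adjusted p = 0.00763), where 33 of 13388 probes (0.246%) did, and its readings outside brain lay between 73.0 and 254, below the array medians of 438.6 to 441.3 in that table. Leaving out each brain array in turn, probe 6 passed in 6 of 6 fits, probe 5 in 4 and probe 12 in 2. The highest adjusted p of these limma fits was 0.0116 for probe 6, 0.114 for probe 5 without congenic brain 1, and 0.134 for probe 12 without congenic brain 2.

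For Ndrg3, 0 of the 23 features passed in any tissue. Beside this stand 11 of 3099 features (0.355%) in brain, 32 (1.03%) in liver, 12 (0.387%) in adipose tissue and 11 (0.355%) in muscle. At an unadjusted limma p under the threshold there were 3 Ndrg3 features in brain, 3 in liver, 0 in adipose tissue and 2 in muscle. Over all 3099 features the share at that unadjusted p was 9.04% in brain, 13.9% in liver, 4.07% in adipose tissue and 4.13% in muscle. In brain 8 features were lower and 15 higher in congenic mice, with a median of 0.08.

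Exon usage of Ndrg3 differed between genotypes in muscle (diffSplice F = 2.40, adjusted p = 0.0295), where 5 of 314 genes (1.59%) passed. In brain and liver it did not (adjusted p = 0.256 and 0.372 in diffSplice), where 2.55% and 21% of the genes passed, nor in adipose tissue (0.955% of genes). The features behind the muscle value were those of the last exon. The 1536-base feature stood at 10.34, 10.29 and 10.53 in B6 muscle and at 9.57, 8.86 and 9.07 in congenic muscle. The 1537-base feature stood at 10.57, 10.05 and 10.27 in B6 muscle and at 9.44, 9.23 and 9.60 in congenic muscle. In both, every congenic muscle lay below every B6 muscle. Relative to the rest of the gene the first was lower by -1.18 (diffSplice adjusted p = 0.00166) and the second by -0.81 (0.174), where 9 of 3072 features (0.293%) passed. As differences of level they were -1.22 ± 0.32 and -0.88 ± 0.24 (SE), with limma adjusted p of 0.175 and 0.182.

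These 2 features cover the same bases but for 1 and are not independent, and both count in the usage test. When only the longest transcript of each gene was kept, the muscle usage test gave F = 2.01 with an adjusted p of 0.653 in diffSplice. It also missed the threshold on leaving out any of the 6 muscle arrays, with a lowest adjusted p of 0.0761. Without congenic muscle 3, the array high in seminal vesicle markers, it gave F = 2.22 with an adjusted p of 0.0934 in diffSplice. In liver the 1536-base feature departed from its gene by -0.86 (diffSplice adjusted p = 0.0220, where 93 of 3072 features or 3.03% passed). Its near copy did not share this, with a genotype difference of 0.21 ± 0.24 against -0.81 ± 0.32. B6 liver 1 read 11.36 in the first feature and 9.61 in the second. Without that array the differences were -0.37 and 0.12.

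**Figure D4:**
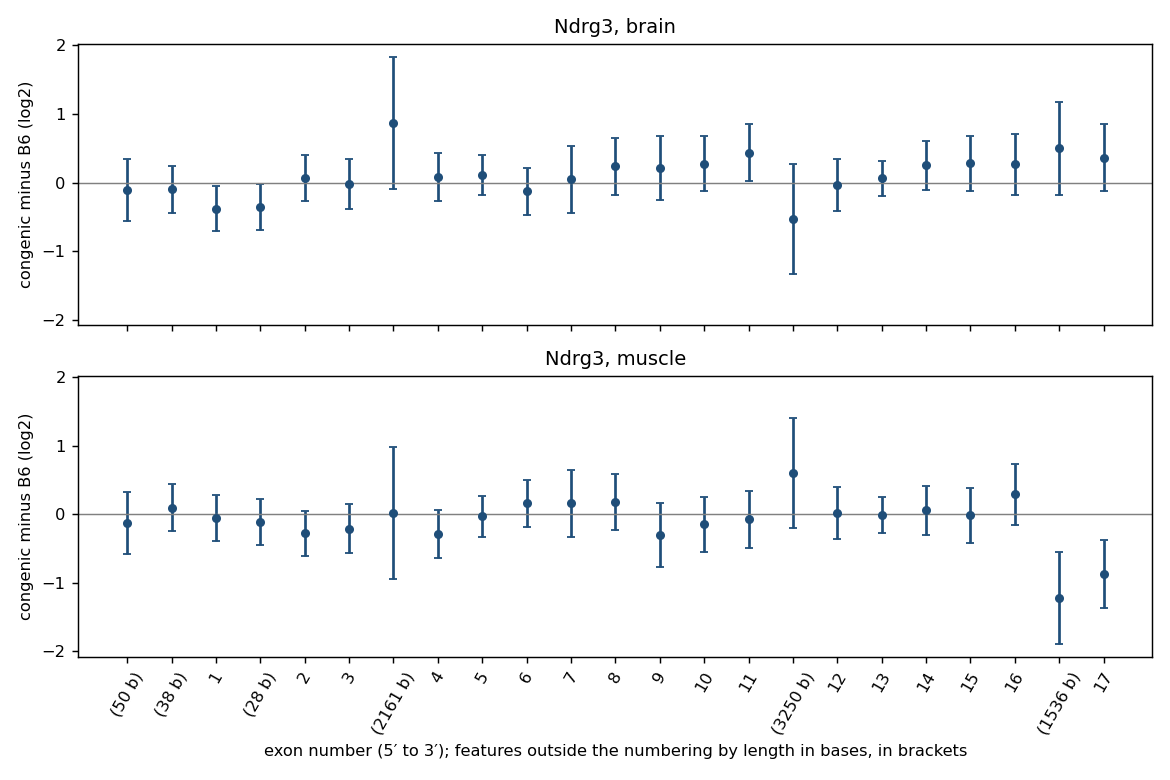
Congenic minus B6 difference (log2) for the 23 exon features of Ndrg3 in brain (upper panel) and muscle (lower panel), in transcript order, with 95% confidence intervals of the limma fit before adjustment. In muscle the last exon, measured by 2 overlapping features, lies at -1.22 and -0.88, while the brain values of the same features are 0.50 and 0.36.

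Of the 147 Ndrg3 probes, 2 passed in brain and 1 in muscle, against 63 (0.471%) and 56 (0.418%) of 13388. The muscle probe was the last probe of the last exon. In transcript 1 (probe 48) it read 2708, 1877 and 2539 in B6 muscle and 119, 710 and 624 in congenic muscle, 6.25-fold lower (log2 difference -2.64 ± 0.57, limma adjusted p = 0.0395). The probe taken by its order to be in the same place of transcript 4 (its last probe) read 2466, 1461 and 2627 against 818, 621 and 484. It was 3.38-fold lower (-1.76 ± 0.40, limma adjusted p = 0.0521). Both sets of arrays were separated by genotype without overlap. In brain the same probes averaged 12562 and 14759 in B6 and 18893 and 20980 in congenic mice, with differences of 0.59 and 0.52 that did not pass (limma adjusted p = 0.818 and 0.742). Probe 48 passed in 2 of 6 fits that each left out a muscle array, and its limma adjusted p was 0.308 without congenic muscle 1. The test of a difference between tissues gave adjusted p of 0.224 and 0.198 for these copies in limma.

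**Figure D5:**
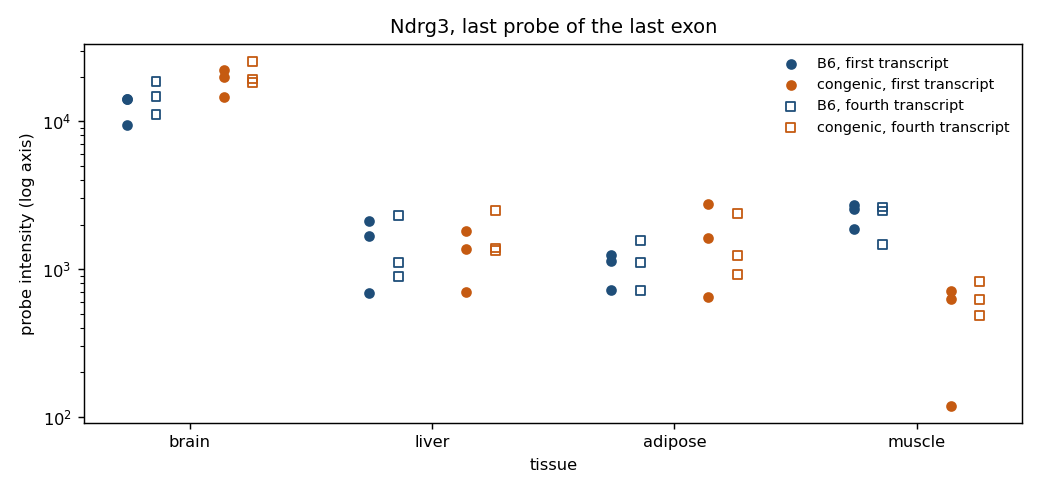
Intensity (log axis) of the last probe of the last Ndrg3 exon in every array, by tissue and genotype, for its copies in transcript 1 (filled circles) and transcript 4 (open squares). Congenic muscle lies between 119 and 818, below all B6 muscle readings of 1461 to 2708, while the lowest brain reading is 9475.

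The brain calls in Ndrg3 were also of single probes. Probe 75, the third of exon 4 in transcript 3, read 2331, 1151 and 2036 in B6 brain and 872, 586 and 530 in congenic brain (-1.45 ± 0.28, limma adjusted p = 0.0150). Its counterparts in transcripts 1 and 4 had differences of -1.67 ± 0.46 and -0.62 ± 0.26, with limma adjusted p of 0.139 and 0.431. All 3 estimates were below 0. The exon 4 feature as a whole, from the scanner values, did not share this fall, with a brain difference of 0.08 ± 0.17 (SE). Probe 57, in exon 2 of transcript 2, was higher in congenic brain by 1.40 ± 0.29 (limma adjusted p = 0.0255), from an average of 175 to 418. The exon 2 feature, from the scanner values, did not share this rise, with a brain difference of 0.06 ± 0.16 (SE). The exon 2 row of transcript 2 averaged 9.46 in B6 and 9.34 in congenic brain. Probe 57 was dim, at 69.0 to 107 outside brain and 86.6 in B6 brain 2, where column medians were at least 438.6. On leaving out each brain array in turn, probe 75 passed in 2 of 6 fits and probe 57 in 1, with highest adjusted p in limma of 0.0764 without congenic brain 2 and 0.118 without B6 brain 2.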

How the data were processed

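The deposited files of the 24 samples hold scanner intensity values per exon row on a linear scale, per the file headers, with no mismatch signal subtracted. The authors' value table holds intensity values of 13388 probes on a linear scale, made with RMA per the submitters' processing notes (version not given in the sources used here). Its column medians lay between 438.6 and 441.3. Beside the intensity, each deposited row also gives a coefficient of variation per the file headers, which was not used. Background was removed from the exon rows by normexp with an offset of 50, followed by quantile normalization and log2. Rows with identical coordinates were averaged, and median polish gave 341 gene levels.

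Groups followed the sample titles. The genotype contrasts came from limma 3.58.1 (R 4.3.3), fitted over 8 group means with a shared spread, and exon usage with diffSplice. Benjamini-Hochberg adjusted p under 0.05 over the whole table was the threshold. The fits were tested on simulated data. The probe fit on log2 values of the value table, the usage alternatives and the motif letters were added after seeing the data. Members and lists were chosen with earlier results of these data known. The rule for named genes took both genes, the 5 genes closest in pattern, the 3 measured neighbours on each side and listed neuronal genes. Endothelial markers were also read: 0 of 4 measured genes passed in brain.

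Probes were assigned to rows by their order (correlation of row means 0.992, and 0.196 after a shift by 1 row). The place of a probe within its row rests on that order alone and was not checked. The same holds for which probes are called copies or counterparts between transcripts. Set against the value table, 7 of 24 scanner files were closest to their own replicate and 17 to another replicate of their group, so replicate numbers are only names. An array named by number in the value table need not be the array of that number in the scanner values. Same-numbered samples did not deviate together in every pair (correlations -0.45 to 0.51). The precision is limited by the 3 arrays per group. Symbols were taken from the platform annotation, and sequences from RefSeq GRCm38.p6. Figures were drawn with matplotlib 3.10.9.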

Additional observations from a re-analysis of the deposited data

Results flagged for a closer look

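The genotype difference of Snhg11 probe 6, the last probe of exon 2 in the authors' value table, differed between tissues by a test of that difference (limma adjusted p = 0.00763 over 13388 probes). In brain the difference was -1.94 and in liver 0.94, with -0.21 in adipose tissue and -0.00409 in muscle. Its readings outside brain were dim.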

How the results depend on the processing

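The brain fall of Snhg11 kept its sign under every alternative run, with limma adjusted p from 0.0340 to 0.502. It passed without the dimmest 25% of features and with the replicate block (limma adjusted p = 0.0395). Since replicate numbers are only names, that block stands for no known pairing. The fall also passed without congenic adipose 1 and congenic muscle 3, the arrays richest in seminal vesicle markers. That fit keeps every brain array and changes only the shared spread. The brain fall missed with no background correction (-0.55), median centring (-0.60), both (-0.46) and the mean of the exon features (-0.39). The value table (-0.48), the 6 brain samples alone (-0.62) and slide and well row as a block (-0.65) missed too. Over the 12 probes that did not pass the brain difference was -0.21, but these probes were picked on the same values, so this is no alternative setting. Leaving out single arrays it ran from -0.80 to -0.44. Genes called in brain numbered 3 in the fit reported and 0 to 3 elsewhere, with 0 under median centring and 3 under the replicate block, which changed no other call.

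Differences near 0 changed sign: Snhg11 in liver with the well row block (-0.0122), Ndrg3 in liver with the value table (-0.00582), Ndrg3 in adipose tissue with neither background correction nor quantile (-0.0123), the value table (-0.0381) and the dim filter (-0.00690), and the Ndrg3 mean over tissues in 6 settings (0.0134, 0.0413, 0.0246, 0.00570, 0.0218 and 0.00173). Leave-out ranges were -0.0599 to 0.106, -0.0404 to 0.125 and -0.0159 to 0.0814 for Snhg11 in liver, adipose tissue and muscle. For Ndrg3 they were -0.0895 to 0.150 in brain, -0.0188 to 0.0252 in adipose tissue and -0.0418 to 0.0180 in the mean. The Snhg11 interaction F ran from 3.58 to 12.0 and passed without B6 brain 2 (limma adjusted p = 0.0496). Snhg11 exon calls in brain ran from 0 to 1, with 1 under no background correction and without B6 brain 2, B6 liver 1, B6 liver 2 or congenic brain 2.

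Brain minus liver was 1.02 for Snhg11 without background correction and quantile and 1.85 in the value table. For Ndrg3 it was 0.74 without background correction, 0.68 without both and 1.19 in the value table. The Ndrg3 usage test in muscle gave F = 2.31 without both and 2.01 with the longest transcripts, and 1.57 to 2.25 on leaving out single muscle arrays. The rank of features was not rerun, since the filter leaves values as they are. The cause of these changes was not tested. The 3 arrays per group limit the precision of each difference.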
